A study of Rattus norvegicus with 8 samples.

Results

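miR-126 is encoded by a single hairpin whose arms are both kept as mature miRNAs, and it is widely used as a gauge of the endothelium, the cell layer that lines blood vessels. Both arms, listed as rno-miR-126 and rno-miR-126*, were taken from the deposited table by name, so that 2 of its 620 miRNAs are described here. The kidneys came from male Big Blue rats, a transgenic line on the Fisher 344 strain, and all 8 rats carried the transgene. The AA-treated rats (n = 4) were gavaged with the sodium salt of aristolochic acid (AA), the nephrotoxic carcinogen of Aristolochia plants. The dose was 10.0 mg per kg in a volume of 4 ml per kg, given on 5 days a week from an age of 6 weeks. Control rats (n = 4) received 0.9% sodium chloride on the same days. Treatment lasted 12 weeks by the study's methods. By the sample labels it lasted 12 to 15 weeks, increasing with the rat number in both groups, although all rats are labelled as 18 weeks old. Each library was made from the small RNA of whole kidney tissue of 1 rat, and no cell type was isolated.

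In endothelial cells the miR-126 hairpin is transcribed as part of Egfl7, the gene of a protein that endothelial cells secrete. The arm named miR-126 represses Spred1 and Pik3r2, inhibitors of signalling downstream of the VEGF receptor, and Vcam1, an adhesion molecule for leukocytes. The arm named miR-126* represses Dlk1, an inhibitor of Notch signalling, and with it favours endothelial proliferation. Platelets and blood progenitor cells also contain miR-126, so that in whole kidney it is not made by endothelium alone. In a bulk sample, fewer endothelial cells and less miR-126 per cell cannot be told apart.

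The mature sequences show which read each of the 2 values counts, and their seeds (bases 2 to 8, in capitals), the part that pairs with target mRNAs, differ. The sequences are those of RefSeq on the GRCr8 build, where both names were matched to the arms that RefSeq calls miR-126a-3p and miR-126a-5p.
miR-126 (miR-126a-3p, plus strand of chr3:29813219-29813240): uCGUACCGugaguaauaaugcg
miR-126* (miR-126a-5p, plus strand of chr3:29813182-29813202): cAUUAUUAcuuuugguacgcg
Both lie inside the Egfl7 gene in the RefSeq gene table, which holds no exons, so that intron or exon was not read from it. Among 693 mature rat miRNA names in the RefSeq table, no other shared either seed. The nearest other sequence found there was 9 base edits away from miR-126 (miR-101a-3p) and 8 from miR-126* (miR-29a-5p). Whether other sequences competed for their reads was not tested. RefSeq also places miR-126b on the opposite strand of the same locus, with mir-3567 as an earlier name of that hairpin. The deposited table lists rno-mir-3567*, at 0 to 10 reads per library, and whether this is the same mature arm as miR-126b was not settled here.

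Reads assigned to miRNAs summed to between 13412373 and 15616670 per library, and the smallest count of an arm in any library was 7651. The rats numbered 4 stood apart from the others. Of 370 miRNAs with a mean of at least 10 normalized counts, 20.5% had control rat 4 and treated rat 4 together as the lowest or together as the highest pair of the 8 rats, against 3.78% to 5.68% for the rats numbered 1, 2 and 3. The main differences are therefore also given without these rats. Nothing in the labels states a batch, and what sets the rats numbered 4 apart was not tested. Kidney miRNAs were abundant in all libraries, since the 8 miRNAs of an epithelial list (miR-192, miR-194, miR-204 and the miR-200 family) took 3.0% to 7.55% of the counts. Endothelial mRNAs were not analysed here, so that the label of miR-126 as endothelial rests on background knowledge.

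miR-126 was among the abundant miRNAs of the kidney in every rat. It had 110638, 94397, 93274 and 114420 reads in control rats 1 to 4, and 101260, 82027, 90078 and 140140 reads in treated rats 1 to 4. It took 0.601% to 0.833% of the counts of a control library and 0.540% to 0.897% of those of a treated library. For the rat with the lowest share, treated rat 2, the 95% Wilson interval was 0.536% to 0.543%, which covers counting error only, since PCR reads are not independent molecules. Its rank among the miRNAs of a library lay between 12 and 21. The highest and the second highest share were those of treated rat 4 and control rat 4, and the groups overlapped widely.

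Normalized as in the DESeq package, with a size factor for each library, miR-126 had 114999, 103675, 88431 and 139802 normalized counts in control rats 1 to 4. The treated rats 1 to 4 had 113630, 64017, 88829 and 114120 normalized counts. Treated rat 2 was the lowest and control rat 4 the highest, while the other 6 rats of both groups shared the range between. The means were 111727 ± 21652 (SD, 4 rats) in the controls and 95149 ± 23878 (SD, 4 rats) in the treated rats. The log2 fold change was -0.23 (standard error 0.22, 95% interval -0.70 to 0.24), and the adjusted p was 0.527 in the quasi-likelihood test of edgeR, adjusted after Benjamini and Hochberg over all 620 miRNAs. A difference was thus not detected, and the interval allows anything from a 1.62-fold decrease to a 1.18-fold increase. A miRNA was called differentially expressed at an adjusted p under 0.05 with a fold change over 1.5, which 9.03% of the table reached, whereas 23.9% had a raw p under 0.05. Among the 62 miRNAs with a mean of at least 10000 normalized counts, the range in which both arms lie, 16.1% passed both thresholds and 67.7% had a fold change below 1. Without the rats numbered 4 the log2 fold change of miR-126 was -0.19 (standard error 0.21, adjusted p = 0.585 in the same test). When single rats were left out, it ran from -0.33 without treated rat 1 to -0.08 without treated rat 2. It was -0.11 without control rat 4.

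**Figure D1:**
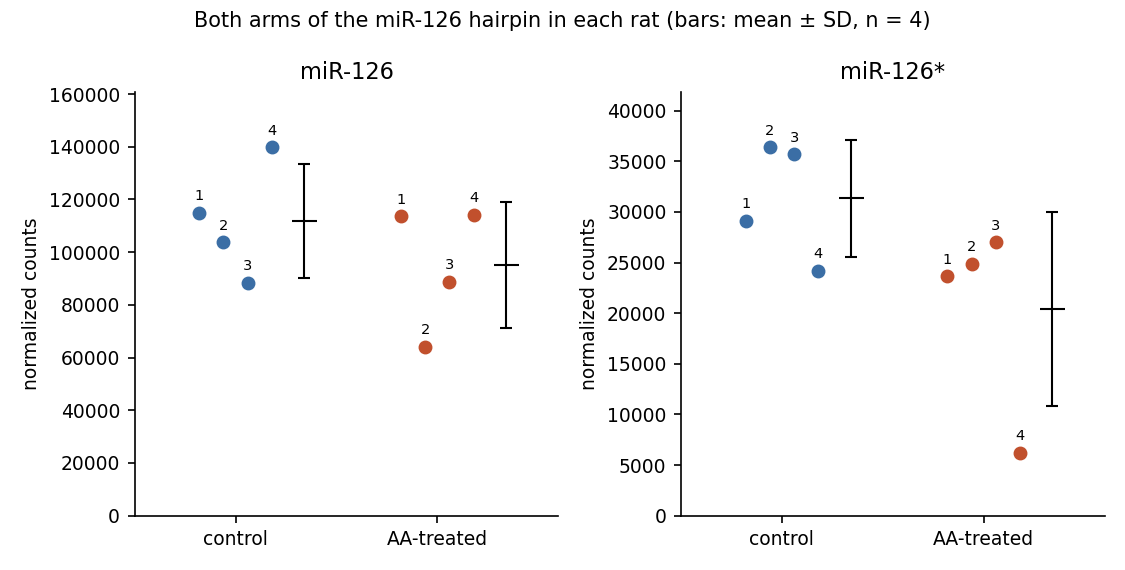
Normalized counts of miR-126 (left) and miR-126* (right) in each control and AA-treated rat, with the rat numbers above the points and the mean ± SD of 4 rats as bars. The groups overlap for miR-126, while treated rat 4 lies far below the other rats for miR-126*, at 6230 normalized counts.

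The scale matters for the direction of the miR-126 value. When libraries were scaled by total counts, the median log2 fold change over the table went from 0.05 to 0.31 and that of miR-126 from -0.23 to 0.02. Relative to the median of all miRNAs it was -0.28 with the size factors and -0.29 with total counts, since a change of scale moves all miRNAs nearly alike. On the scale of library shares the means were 0.701% ± 0.102 in the controls and 0.711% ± 0.152 in the treated rats (SD, 4 rats each; exact permutation test, two-sided, p = 0.914). By control mean, miR-126 stood at rank 17, between miR-24 at 114357 ± 24749 and miR-26a at 106272 ± 17822 normalized counts (SD, 4 rats each). Both means lay within an SD of that of miR-126, and a difference was not tested. Of the 4 control rats, miR-24 was above miR-126 in 3 and miR-26a in 1. Adaptor ligation favours some sequences over others, so that the order of different miRNAs is one of reads and not of molecules.

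miR-126*, the arm that targets Dlk1, was present at a lower level than its partner in all 8 rats. It had 28038, 33127, 37629 and 19807 reads in control rats 1 to 4 and 21060, 31853, 27384 and 7651 reads in treated rats 1 to 4. After normalization these were 29143, 36383, 35675 and 24201 normalized counts in the controls, and 23633, 24859, 27004 and 6230 in the treated rats. Treated rat 4 was lowest by a wide margin, and control rat 4 was the lowest of its group. By control mean, miR-126* stood at rank 32, between miR-194 at 32436 ± 3350 and miR-30a* at 28934 ± 6192 normalized counts (SD, 4 rats each). Both means lay within an SD of that of miR-126*, and a difference was not tested. Of the 4 control rats, miR-194 was above miR-126* in 2 and miR-30a* in 1. Within single libraries the rank of miR-126* was 31 to 37, except in treated rat 4, where it was 74. The only overlap between the groups came from control rat 4, which lay below treated rats 2 and 3.

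The mean of miR-126* was 31351 ± 5774 (SD, 4 rats) in the controls and 20432 ± 9569 (SD, 4 rats) in the treated rats, a 1.53-fold lower mean. Its log2 fold change of -0.62 (standard error 0.34, 95% interval -1.36 to 0.12) did not pass the threshold, with an adjusted p of 0.301 in edgeR's quasi-likelihood test. The exact permutation test over the 70 labelings of the rats gave p = 0.0857 (two-sided). The interval reaches from a 2.56-fold decrease to a 1.09-fold increase. The coefficient of variation was 46.8% in the treated group and 18.4% in the controls. This spread was that of treated rat 4, since without it the coefficient of the treated group was 6.78%, below that of the controls. Of the 62 abundant miRNAs, 58 had a smaller coefficient of variation than miR-126* in the 4 treated rats, and 1 had a smaller one in treated rats 1 to 3. As a share of the library, miR-126* had means of 0.199% ± 0.0441 in the controls and 0.153% ± 0.0732 in the treated rats (SD, 4 rats each). The exact permutation test on these shares gave p = 0.343. Scaled by total counts, its log2 fold change was -0.38.

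Part of the lower mean of miR-126* belonged to treated rat 4. Leaving out this rat gave a log2 fold change of -0.31 with a standard error of 0.18 (edgeR, adjusted p = 0.370). Without both rats numbered 4 it was -0.41 (standard error 0.14, 95% interval -0.72 to -0.10), with a raw p of 0.0143 and an adjusted p of 0.116. In that smaller comparison the control rats had 29143 to 36383 and the treated rats 23633 to 27004 normalized counts, and the groups did not overlap. Among all 620 miRNAs, 12.3% had these 3 treated rats below the 3 controls, and 6.61% had all 4 treated rats below all 4 controls. With a term for the rats numbered 4 in the model, the log2 fold change of miR-126* was -0.79 (standard error 0.24) and its adjusted p 0.0515, just outside the threshold. The direction was downward in each of these fits, and none of them placed miR-126* among the differentially expressed miRNAs.

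**Figure D2:**
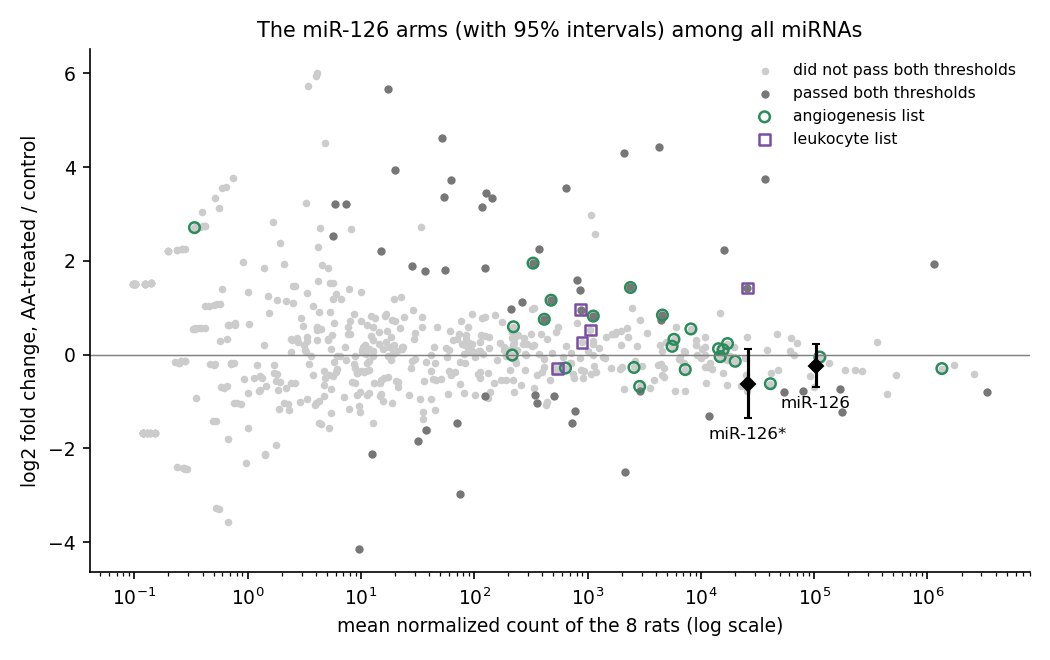
Log2 fold change of AA-treated over control rats against the mean normalized count (log scale) for all 620 miRNAs, with the miR-126 arms as black diamonds with 95% intervals and the members of the angiogenesis and leukocyte lists as open symbols. Both intervals of the miR-126 arms include 0, and the leukocyte miRNA miR-142-3p, with a log2 fold change of 1.42, stands above both, at an abundance near that of miR-126*.

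Summed over both arms, the hairpin had 124106 to 164003 normalized counts in the controls and 88876 to 137262 in the treated rats. The means were 143077 ± 16412 and 115580 ± 20050 (SD, 4 rats each), with p = 0.0571 in the exact permutation test (two-sided), where 0.0286 is the smallest p that 4 rats against 4 allow. Only treated rat 1 reached into the range of the control rats. The difference of -27497 normalized counts was -22112 without the rats numbered 4. As a share of the library the sum was 0.900% ± 0.0584 in the controls and 0.864% ± 0.0865 in the treated rats (SD, 4 rats each; exact permutation test, p = 0.571), so that the difference in normalized counts was not seen on this scale.

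The ratio of the arms lies within a library and does not depend on how libraries are scaled. miR-126 exceeded miR-126* 3.95-fold, 2.85-fold, 2.48-fold and 5.78-fold in control rats 1 to 4, and 4.81-fold, 2.58-fold, 3.29-fold and 18.3-fold in treated rats 1 to 4. In both groups the rat numbered 4 had the most unequal arms. miR-126* made up 14.8% to 28.7% of the hairpin's counts in the controls. It made up 17.2% to 28.0% in treated rats 1 to 3 and 5.18% in treated rat 4. The mean log2 ratio of miR-126* to miR-126 was -1.83 ± 0.54 in the controls and -2.39 ± 1.26 in the treated rats (SD, 4 rats each; exact permutation test, two-sided, p = 0.571). Without treated rat 4 the difference turned from -0.55 to 0.05, and without both rats numbered 4 it was -0.18 (exact permutation test, p = 0.600). The SD without these rats was 0.34 in the controls and 0.45 in the treated rats. A change of the arm ratio with AA treatment was thus not detected.

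**Figure D3:**
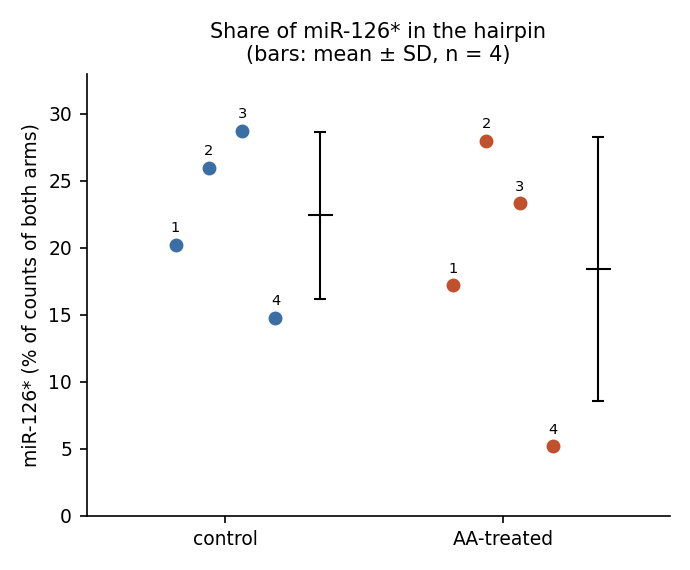
Share of miR-126* in the counts of both arms (percent) in each control and AA-treated rat, with rat numbers above the points and the mean ± SD of 4 rats as bars. The rats numbered 4 are lowest in their groups, at 14.8% and 5.18%.

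The shift of the arm ratio in the rats numbered 4 was compared with that of the other hairpins. There were 54 hairpins with a mean of at least 100 counts on each arm. For miR-126, the log2 ratio of the minor to the major arm in the rats numbered 4 minus that in the other 6 rats was -1.67. This was the largest shift in either direction among the 54 hairpins, which ranged from -1.67 to 1.62 with a median of 0.03. The shift was carried mostly by treated rat 4. It was -2.50 for this rat alone, where 1 hairpin had a larger shift, and -0.84 for control rat 4 alone, where 13 of the 54 did. In the mean of both rats, the arm ratios of miR-34c and miR-142 were shifted in the same direction, by -1.46 and -1.17, and those of miR-10b and miR-106b in the opposite one, by 1.62 and 1.5. The rats numbered 4 had the lowest pair of ratios in 4 hairpins and the highest pair in 12. The log2 level of miR-126* differed from that in the other 6 rats by -2.22 in treated rat 4 and by -0.26 in control rat 4, where it lay within their range. That of miR-126 differed by 0.28 in treated rat 4, within the range of the others, and by 0.58 in control rat 4. As a mean of both rats, the difference of miR-126 was 0.43, the 82nd highest of 370 miRNAs, and that of miR-126* was -1.24. The comparison was made after the values had been seen and is a description of these libraries. By the evenness of its arms, with a mean log2 ratio of -2.11 against a median of -4.49, miR-126 came after 14 of the 54 hairpins.

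**Figure D4:**
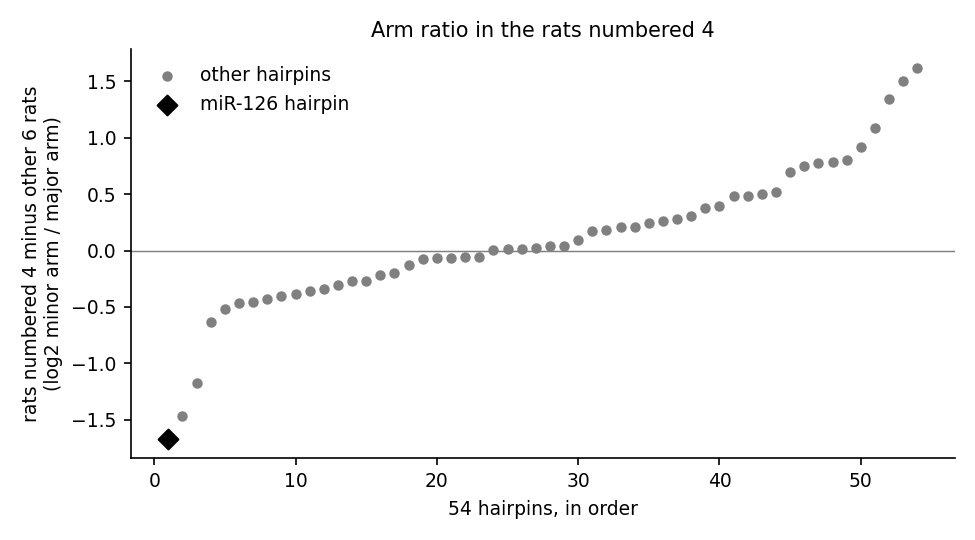
Log2 ratio of the minor to the major arm in the rats numbered 4 minus that in the other 6 rats, for 54 hairpins in order. The miR-126 hairpin (diamond) is at the lower end, at -1.67.

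The arms also followed different miRNAs across the rats. Over the 8 rats, the log2 normalized counts of miR-126 and miR-126* had a Pearson r of -0.23, and without the rats numbered 4 it was 0.18 over 6 rats. The points share libraries and size factors, and the values are descriptions. Among 369 other miRNAs, those most like miR-126 were miR-151* (r = 0.92), miR-129 (0.89), miR-139-3p (0.89), miR-184 (0.88) and the tubule miRNA miR-192 (0.88). Without the rats numbered 4 their r lay between 0.83 for miR-184 and 0.97 for miR-192. miR-151* was highest in the rats numbered 4, with 18103 normalized counts in the control and 14457 in the treated one, against 6052 to 11805 in the remaining rats. Those most like miR-126* were miR-99a* (r = 0.98), miR-200b* (0.98), miR-140 (0.98), miR-101a (0.98) and miR-200a* (0.97). All 5 were lowest in treated rat 4, as miR-126* was. miR-101a, for example, had 132549 normalized counts in this rat, 232204 in control rat 4 and 243500 to 328638 in the others, and miR-140 had 2121, 4413 and 4258 to 5744. Without treated rat 4 the r of these 5 with miR-126* fell to between 0.73 and 0.88 over 7 rats. None of the 10 miRNAs was differentially expressed, with adjusted p from 0.0973 to 0.561 in edgeR's test.

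miR-126 was next set against miRNAs of the other cell types of the kidney, as ratios within each library, which depend on no scaling. The lists were chosen with earlier results of these data known, so that the p-values of these ratios are descriptive. The leukocyte list showed the clearest difference. Its 5 miRNAs are miR-142-3p and miR-142-5p, which are specific to blood cells, miR-150 of lymphocytes, miR-223 of myeloid cells, and miR-342-3p. Control rats 1 to 4 had 6.36, 6.14, 4.84 and 9.68 reads of miR-126 for each read of the list. Treated rats 1 to 4 had 3.17, 1.5, 2.96 and 2.0. Every treated rat was thus below each control rat, and the mean log2 ratio fell from 2.71 ± 0.42 to 1.2 ± 0.51 (SD, 4 rats each), a 2.84-fold lower ratio. Among all 620 miRNAs taken singly, 16.3% had normalized counts that did not overlap between the groups. The log2 fold change of miR-126 itself was -0.23, and that of miR-142-3p in the list was 1.42. The exact permutation test on the ratios gave p = 0.0286 (two-sided), the smallest possible, and 0.143 after adjustment over the 5 lists compared. With 4 rats against 4, 1 list alone cannot come below this adjusted value even when its groups separate fully, so that the adjusted test could not pass here. Without the rats numbered 4 the difference in log2 ratio was -1.25 instead of -1.5. When all 5 miRNAs of the list weighed the same, it was -0.78, and miR-142-3p supplied most of the list's reads.

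Members of the leukocyte list were themselves higher in the treated rats. miR-142-3p rose 2.67-fold, from 14047 ± 1876 to 37532 ± 11515 normalized counts (SD, 4 rats each; adjusted p = 7.92e-04 from edgeR), and miR-223 rose 1.94-fold (adjusted p = 0.0231). miR-142-3p passed both thresholds whichever single rat was left out, whereas miR-223 did not without control rat 1, 2 or 3, with an adjusted p of up to 0.0741 in edgeR's test. Both belong to the 5.81% of all miRNAs that were differentially expressed and higher in the treated rats. The other 3 miRNAs of the list did not pass the test, with log2 fold changes of 0.26 for miR-142-5p, 0.52 for miR-150 and -0.30 for miR-342-3p. The list took 0.0861% to 0.124% of the counts in the controls and 0.220% to 0.449% in the treated rats.

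Against the other cell types the ratio of miR-126 overlapped between the groups. Against the fibroblast list (miR-199a-5p, miR-199a-3p and miR-214) the mean log2 ratio was 3.91 ± 0.27 in the controls and 3.06 ± 0.60 in the treated rats (SD, 4 rats each; exact permutation test, p = 0.0857, adjusted p = 0.190). The difference was -0.86, and -0.78 without the rats numbered 4. Treated rats 2 to 4 were below every control rat and treated rat 1 was not. Against the 8 epithelial miRNAs it was -2.63 ± 0.37 and -2.27 ± 0.18 (SD, 4 rats each; exact permutation test, adjusted p = 0.190). The difference in log2 ratio, 0.37, was 0.18 without control rat 4, 0.11 without both rats numbered 4 and 0.10 when the 8 miRNAs weighed the same. In this list 6 of the 8 miRNAs had log2 fold changes below 0. So did 67.7% of the 62 miRNAs with a mean of at least 10000 normalized counts. Of all 620 miRNAs, 3.23% were differentially expressed and lower. The log2 fold changes of the tubule miRNAs miR-192 and miR-194 were -0.84 (adjusted p = 0.168 from edgeR) and -0.77 (adjusted p = 0.0515). That of miR-204, a miRNA of tubule epithelium, was of similar size at -0.86, and it alone passed the test (adjusted p = 0.0357), although it passed in only 3 of the 8 fits that each left out 1 rat and not without both rats numbered 4, with TMM scaling or with total counts. Against miR-143 and miR-145 of smooth muscle the mean log2 ratio was -4.73 ± 0.34 and -4.57 ± 0.40 (SD, 4 rats each; exact permutation test, adjusted p = 0.629). The difference of 0.16 ran from 0.0025 without treated rat 4 to 0.33 without treated rat 2 when single rats were left out, with 0.04, 0.09, 0.24 and 0.26 without control rats 2, 3, 1 and 4, and was 0.11 without both rats numbered 4. When both miRNAs weighed the same, the difference reversed to -0.16. miR-143, at 2935740 normalized counts in the controls, made up nearly all of the summed counts of this list.

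The red cell list was represented by miR-144 and miR-451, and miR-486 was not analysed here. Its ratio varied most in the treated rats, with 17.5, 7.89, 16.3 and 52.5 reads of miR-126 for each read of the list in rats 1 to 4, against 8.58 to 16.6 in the controls. Treated rat 4, which had the least miR-126*, also had the fewest red cell miRNA reads for its miR-126. The groups overlapped (exact permutation test, adjusted p = 0.629). The difference in log2 ratio of 0.64 ran from 0.14 without treated rat 4 to 1.05 without treated rat 2 and was 0.28 without both rats numbered 4. The part of blood left in the kidneys in the miR-126 values was not tested.

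**Figure D5:**
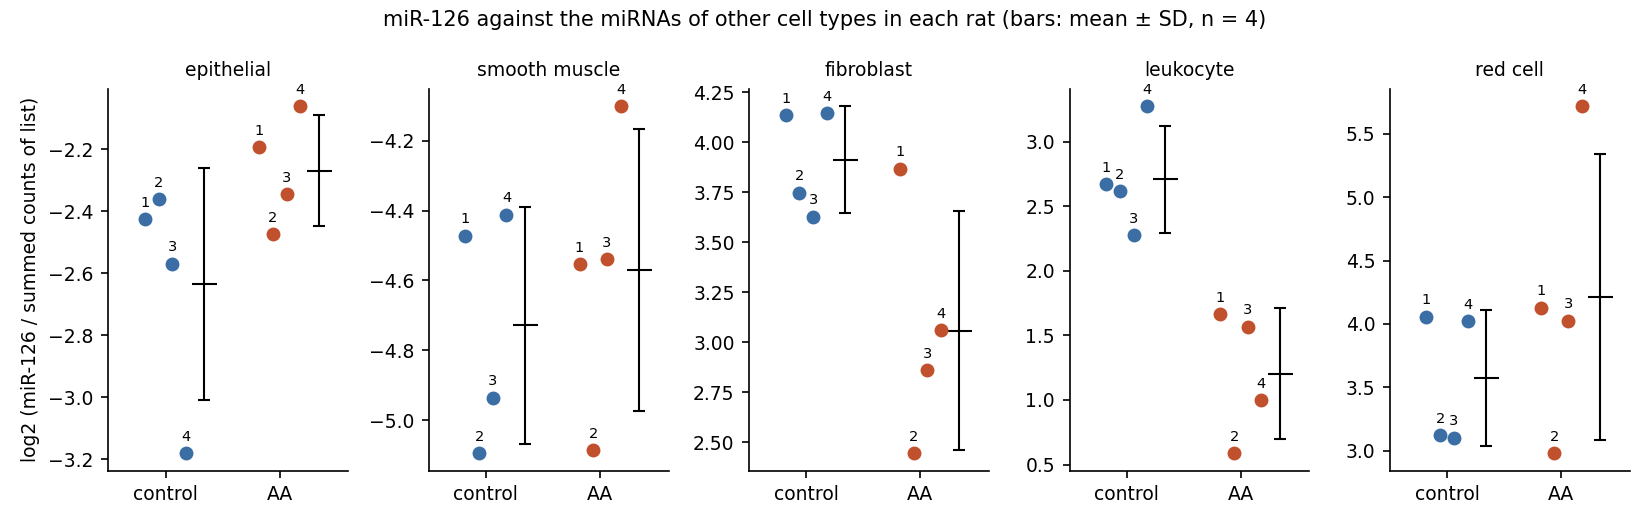
Log2 ratio of miR-126 to the summed counts of 5 lists of miRNAs of other cell types in each control and AA-treated (AA) rat, with rat numbers above the points and the mean ± SD of 4 rats as bars. The groups separate for the leukocyte list, with means of 2.71 and 1.2, and overlap for the other 4 lists.

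Other miRNAs with known roles in endothelial cells or in the growth of vessels were given by a list of 25, of which 24 were in the table and miR-155 was not analysed here. They are made by many cell types, so that none of them marks endothelium as miR-126 does. Of these 24, 6 were differentially expressed, all of them higher in the treated rats. Among all miRNAs, 5.81% were differentially expressed and higher, and 3.23% were differentially expressed and lower. The list was chosen with earlier results of these data known. All miRNAs also include those with a mean under 10 normalized counts, whereas in the list only miR-296 lay so low. The shares are therefore descriptive, and an enrichment of the list was not tested. The median log2 fold change of the list was 0.15, and that of all miRNAs was 0.05. The 6 were miR-132, which promotes endothelial growth by repressing Rasa1, miR-221 and miR-222, which repress Kit, miR-322 and miR-503 of one cluster, and miR-18a of the cluster of miR-17. miR-132 rose most, from 136 ± 40.3 to 526 ± 81.7 normalized counts (SD, 4 rats each; log2 fold change 1.95, adjusted p = 2.76e-04 from edgeR). miR-221 rose 1.77-fold to 1436 ± 180 and miR-222 1.69-fold to 522 ± 49.4 normalized counts (SD, 4 rats each). Both passed the threshold narrowly, with adjusted p of 0.0253 and 0.0390 in the same test. The number of miRNAs in the list called higher rested on single rats. It was 2 without control rat 3 or control rat 4, 3 without control rat 1 or control rat 2, 4 or 5 without 1 treated rat, and 3 without both rats numbered 4. Only miR-132 and miR-18a passed whichever single rat was left out, while miR-222 passed in none of these 8 fits and miR-221, miR-322 and miR-503 in 4 each. miR-503 also failed the thresholds with limma-voom and with robust moderation, where 5 miRNAs of the list were called higher.

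Other members with well known roles did not pass the test. miR-24 had 114357 ± 24749 and 110359 ± 10330 normalized counts in the control and treated rats (SD, 4 rats each). miR-27b, a regulator of vessel branching, had 49809 ± 17455 and 32420 ± 6013 normalized counts, and miR-92a, an inhibitor of vessel growth, had 5239 ± 1140 and 5927 ± 479 (SD, 4 rats each). miR-210, which hypoxia induces, had 310 to 1687 normalized counts in the controls and 305 to 1187 in the treated rats. The spread of miR-210 within each group was thus wider than the difference between the groups. Adjusted p of these 4 miRNAs ran from 0.135 for miR-27b to 0.874 for miR-24 in edgeR's test.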

How the data were processed

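The deposited table holds raw counts, the number of reads of each mature miRNA in each library. Per the study's methods, the authors masked adaptors, removed contaminated reads and assigned the rest to rat miRNAs of miRBase release 16 with the miRanalyzer webserver at default parameters, and the processing notes name CASAVA 1.7. How reads with several matching miRNAs were counted is not given in the sources used here. Size factors were the median of ratios of the counts, and all 620 miRNAs were tested with edgeR 4.0.16 (quasi-likelihood test, no covariate, 8 rats, Benjamini-Hochberg adjustment) in R 4.3.3. Differential expression means an adjusted p under 0.05 with group means that differ over 1.5-fold. Ratios within libraries were compared with exact permutation tests, two-sided, in Python 3.11.15. The 95% intervals of fold changes use the standard error implied by the quasi-likelihood F. Correlations used log2 normalized counts with a pseudocount of 1. The miRNAs named were both arms, miRNAs sharing a seed, list members, the 5 most like each arm and the neighbours in abundance. Other names were chosen after their values were seen. Members and lists were chosen with earlier results of these data known. On data simulated for this comparison (601 miRNAs), the test recovered 83.3% of 18 changes of 2-fold and 100% of 23 changes of 4-fold at a mean of at least 1000 counts, and 5.04% of all its calls were false. Simulated libraries varied independently, with no shift shared by the rats numbered 4, and calls were scored by adjusted p alone. The recovery for an arm with such a shift was not tested. Alternatives were TMM, total counts, DESeq2 1.42.0, limma-voom (limma 3.58.1), robust moderation, 2 filters on low counts, other fold thresholds, the rat number as a replicate block, a covariate for the rats numbered 4, and leaving out rats. No library repeated another in the 28 pairs compared. The labels name 8 rats. The tests set the difference between groups against the spread between rats, which edgeR moderates over all miRNAs.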

Additional observations from a re-analysis of the deposited data

Results flagged for a closer look

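The normalized count of miR-126* in treated rat 4, 6230, was set apart because its gap to the next rat of the group made up more of the group's range than Dixon's 95% critical value for 4 samples allows. The other 3 treated rats had 23633 to 27004 normalized counts, and the gap took 0.838 of the range. In all, 20 groups of 4 rats were examined in this way, and 1 was set apart, where chance gives about 1 in 20.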

How the results depend on the processing

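Neither arm passed the thresholds under any of its 18 alternatives. The log2 fold change of miR-126 reversed to 0.0212 with total counts, which shift the median of all miRNAs upwards, and ran from -0.33 to -0.08 when single rats were left out. That of miR-126* kept its direction, from -0.79 to -0.31 with each rat left out and from -0.81 to -0.38 otherwise, with adjusted p from 0.0515 to 0.496. The difference in arm ratio reversed to 0.0501 without treated rat 4 and lay between -0.89 and 0.05 with each rat left out. The ratio to the smooth muscle list reversed to -0.16 when both miRNAs weighed the same. The Pearson r between the arms reversed from -0.23 to 0.18 without the rats numbered 4, a setting chosen after seeing the data. The 56 differentially expressed miRNAs became 40 to 62 with each rat left out, and 69 with total counts, of which 84.1% were higher against 64.3%. The number of angiogenesis miRNAs called higher, 6, ran from 2 to 5 with each rat left out and was 3 without both rats numbered 4, and the 2 of the leukocyte list ran from 1 to 2, all settings chosen after seeing the data. A replicate block on the rat number gave 74 differentially expressed miRNAs, and miR-126* had a log2 fold change of -0.79 (adjusted p = 0.0804, edgeR). Rats of 1 number are different animals, and their deviations correlated by -0.01, 0.14, 0.12 and 0.34 for numbers 1 to 4, with a mean of 0.15 against -0.05 between rats of different numbers. In 5 of 8 rats the closest rat of the other group had the same number. As the rats numbered 1 did not deviate together, the numbers were not taken as pairs, although miR-126* and the sum of both arms were lower in the treated rat of all 4 numbers. The comparison without both rats numbered 4 leaves 3 rats against 3, where the exact test cannot go below 0.1, and the block leaves 4 pairs, where it cannot go below 0.125. The lowest count of an arm was 7651 reads, and the effect of depth on the arms was not tested.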
